A study of Drosophila melanogaster with 18 samples.

Results

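The sites described here are positions in the Drosophila melanogaster genome at which transcription started inside a cloned DNA fragment, and which have another such site on the same strand 51 to 250 bp away. They were chosen by position alone. A site of the genome-wide list was kept if it lay on one of the 6 chromosome arms (2L, 2R, 3L, 3R, 4 and X), if its nearest other site on the same chromosome and strand was 51 to 250 bp away, and if no site on the opposite strand lay within 250 bp. The rule kept 924 of the 12469 sites on the arms, out of 13218 sites in the whole list.

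The list comes from STAP-seq, in which sheared genomic fragments are placed in a reporter plasmid and the 5′ ends of the resulting transcripts are read, which shows whether a fragment can start transcription without its native surroundings. Embryos of the sequenced fly strain (y; cn bw sp) gave the DNA, which was size-selected to about 100 to 250 bp, and the plasmids were tested in S2 cells, an established embryonic line. The labels name this 1 list for 2 samples with the zfh1 enhancer in the plasmid (zfh1_genome-wide) and for 2 samples whose plasmid had no enhancer (ctrl_genome-wide). The zfh1 gene encodes a transcription factor with zinc fingers and a homeodomain. A second list of 753 sites belongs to fragments of bacterial artificial chromosomes (BACs), also tested in S2 cells, and is named for 3 samples with the zfh1 enhancer (zfh1_BAC_S2) and 1 sample without an enhancer (ctrl_BAC_S2). Both lists have zfh1 alone in their own names. Whether their sites were called in the zfh1 samples, the controls or both is not stated. All 8 samples share the reporter backbone with its mhc16 intron, and the plasmid readout does not include the chromatin in which a site lies in the fly.

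A core promoter is the short stretch of DNA around a start site on which RNA polymerase II and the general transcription factors assemble. In flies many core promoters carry an initiator at the start itself, and some also a TATA box upstream or a downstream promoter element. Promoters differ in how focused they are: some start at nearly 1 base and others over a broad stretch, and a gene can use several separate starts in the same direction. Neighbouring starts on 1 strand can lie in the same test fragment when they are closer together than the fragment is long.

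The lists give each site as 1 base, with a strand and a serial number. They hold no level and no column for a sample or a condition, so depth is unknown, the response to the enhancer has no value here, and a site cannot be assigned to the zfh1 or the control samples. The tests below therefore run across sites or pairs of sites, and neither stand for replicate samples. Positions are 1-based in the genome build dm3. The gene table at hand describes another build, so no gene, exon or UTR is named for a site, and no sequence is printed.

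The spaced same-strand sites made up 7.41% of the sites on the arms (95% Wilson interval 6.96 to 7.88). A further 875 sites (7.02%, 6.58 to 7.48) had a same-strand site within 50 bp and no opposite-strand site within 250 bp. An opposite-strand site lay within 250 bp of 1641 sites (13.2%, 12.6 to 13.8). The remaining 9029 sites (72.4%) had no other site within 250 bp on either strand and are called isolated here. Intervals cover counting error only.

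All large arms held spaced same-strand sites in similar shares. Arm 3R had 243 of them, 7.91% of its sites (7.01 to 8.92), and 2L had 163, or 7.64% (6.59 to 8.84). On X there were 154 (7.38%, 6.34 to 8.58), on 2R 189 (7.34%, 6.40 to 8.42) and on 3L 173 (6.86%, 5.94 to 7.92). These 5 intervals overlap each other. Chromosome 4 held 1 pair only, so 2 of its 83 sites were kept (2.41%, 0.663 to 8.37). The plus strand carried 478 sites and the minus strand 446, which is 51.7% on the plus strand (48.5 to 54.9).

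Along the arms the sites were unevenly spread, and some wide stretches held none. The rule itself keeps sites near each other, and the windows given are the fullest of their arms. Whether the spread differs from that of all arm sites was not tested. The fullest 1000 kb window lay on 2L from 6000001 to 7000000, where 22 of 144 sites were spaced same-strand sites. On 3R the fullest window, from 11000001 to 12000000, held 19 of 136. The widest stretch without any spaced same-strand site ran over 1914 kb on X, from 3670350 to 5584431. On 2L the widest stretch was 1778 kb, from 13984263 to 15762755.

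Short spacings were the most common. The median distance to the nearest same-strand site was 85 bp, with quartiles of 64 and 141 bp, and 554 of the 924 sites (59.96%, 56.8 to 63.1) had their neighbour within 100 bp. Per bp of distance, 14.6 sites had a neighbour at 51 to 75 bp, 7.52 at 76 to 100 bp and 3.40 at 101 to 150 bp. The rate was 2.16 sites per bp at over 150 and up to 200 bp and 1.84 at 201 to 250 bp, beside 1.34 per bp among isolated sites whose same-strand neighbour was 251 to 500 bp away. Below the lower limit it was 30.2 per bp, from 22 bp, the smallest same-strand distance in the list, to 50 bp. The rate was lower in each wider class of distance, and most of that fall lay below about 150 bp.

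**Figure D1:**
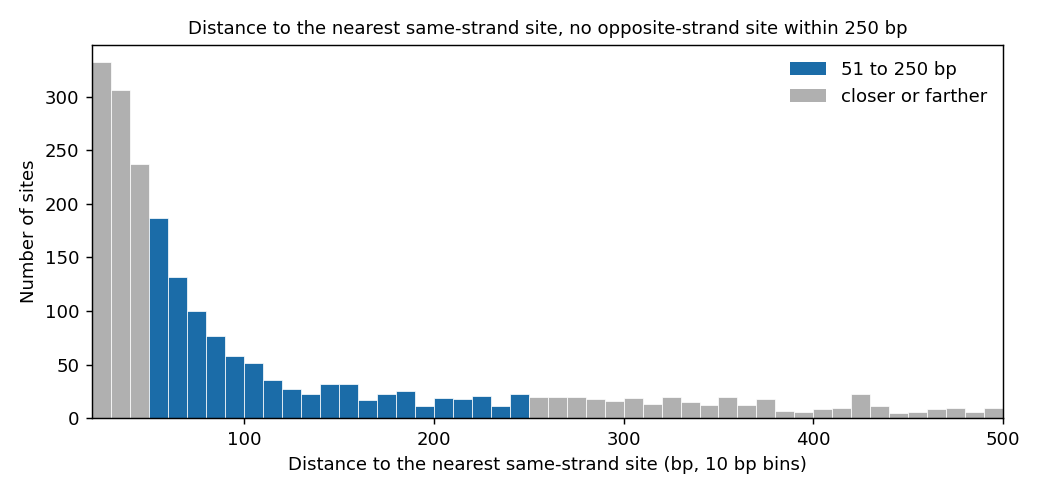
Number of arm sites (vertical axis) by distance to the nearest same-strand site in bins of 10 bp (horizontal axis, bp), for sites with no opposite-strand site within 250 bp. Blue bars are the 924 spaced same-strand sites at 51 to 250 bp and grey bars are closer or farther sites. There were 187 sites at 51 to 60 bp, and between 11 and 32 in every bin above 130 bp up to the limit of 250 bp.

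The limits of the rule do not separate distinct counts. Just inside the lower limit, at 51 to 60 bp, there were 187 sites, and just outside it, at 41 to 50 bp, there were 237. At the upper limit, 23 sites had their neighbour at over 240 and up to 250 bp and 20 sites at 251 to 260 bp.

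Pairs were by far the most frequent arrangement. Linking sites of the set that were same-strand neighbours within 250 bp gave 479 groups. Of these, 389 were pairs (778 sites), 25 were trios (75 sites) and 2 held 4 sites. The other 63 sites stood alone within the set because their same-strand neighbour fell outside it. In 48 of these cases the neighbour had a closer same-strand site within 50 bp, and in 15 cases it had an opposite-strand site within 250 bp.

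The 2 largest groups had 4 sites each, all on the plus strand. On 3R they lay at 117353, 117459, 117540 and 117674, a span of 321 bp, with serial numbers of 12284, 2746, 12285 and 5366 in the direction of transcription. On 2R they lay at 3918789, 3918878, 3919098 and 3919161, over 372 bp, with numbers of 4881, 8622, 5566 and 5870. Both groups span more than the largest selected fragment of about 250 bp.

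Trios were mostly short enough for 1 fragment. Their span ranged between 122 and 301 bp with a median of 196 bp, and 22 of 25 spanned at most 250 bp. The 3 trios with the lowest serial number in any site were on 3L, 3L and 2R. On the minus strand of 3L, sites at 15693000, 15692949 and 15692745 had numbers of 5109, 432 and 2139 in the direction of transcription. On the plus strand of 3L, sites at 4148698, 4148756 and 4148830 had numbers of 540, 707 and 2056. The trio on the plus strand of 2R, at 14649211, 14649263 and 14649512, had numbers of 11405, 648 and 7694. Over all 25 trios the lowest number belonged to the most upstream site in 10, to the middle site in 10 and to the most downstream site in 5.

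Each site carries a serial number between 1 and 13218. What the numbers were ranked by is not stated in the labels or the file. The number was not used by the rule. It is read here as an order only, not as a strength. The list falls into 926 stretches of consecutive numbers in which chromosome and start, sorted as text, ascend. Within a stretch the number therefore follows position. Among isolated sites inside the regions covered by the BAC list, those with numbers up to 6600 were found again in the BAC list more often (78.7%, 73.2 to 83.3, of 249) than those with higher numbers (44.9%, 38.4 to 51.6, of 216).

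A larger share of the spaced same-strand sites than of the isolated sites had low numbers. With each group counted as 1 site the difference was smaller and did not pass the threshold after adjustment. The median number of the spaced sites was 5825 (quartiles 2579 and 9298), against 6755 (3346 and 9999) for isolated sites. Numbers up to 6600, the median of all arm sites, were held by 520 of the 924 spaced sites (56.3%, 53.1 to 59.4), against 4422 of the 9029 isolated sites (48.98%, 47.9 to 50.01). The shares differed by 7.30 percentage points (two-sided Fisher's exact test, p = 2.46e-05, Benjamini-Hochberg adjusted over 2 comparisons 4.92e-05). Sites of 1 group are not independent, and with 1 site per group (the leftmost) the difference was 4.68 points, which did not pass the threshold after adjustment (Fisher's exact p = 0.0488, adjusted 0.0977). The list without its highest-numbered 25% was classed anew and split at its own median number, not at 6600. There the difference was 2.01 points and did not pass the test either (Fisher's exact p = 0.352, adjusted 0.705).

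The sites with a same-strand neighbour within 50 bp had a median number of 5987, close to the spaced sites. Of these 875 sites 55.2% (51.9 to 58.5) had numbers up to 6600, and the difference from the spaced sites did not pass the test (Fisher's exact p = 0.669, adjusted 0.669). Within the set, the median number was 6066 at 51 to 75 bp, 5468 at 76 to 100 bp, 5660 at 101 to 150 bp, 4841 at over 150 and up to 200 bp and 6186 at 201 to 250 bp. These medians follow no order along the spacing, and their quartile ranges overlap widely.

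Cut into 10 ranges of serial numbers of about equal size, the list held the largest share of spaced same-strand sites among its lowest numbers. In numbers 1 to 1322, 128 of 1298 arm sites (9.86%, 8.36 to 11.6) were of this kind, and in numbers 1323 to 2644 there were 109 of 1257 (8.67%, 7.24 to 10.4). The smallest share was 5.16% (4.07 to 6.52) in numbers 9255 to 10576, with 65 of 1260. In the highest-numbered range it was 6.89% (5.61 to 8.43). The interval of the lowest-numbered range lies above that of numbers 9255 to 10576, and the shares do not fall at every step.

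**Figure D2:**
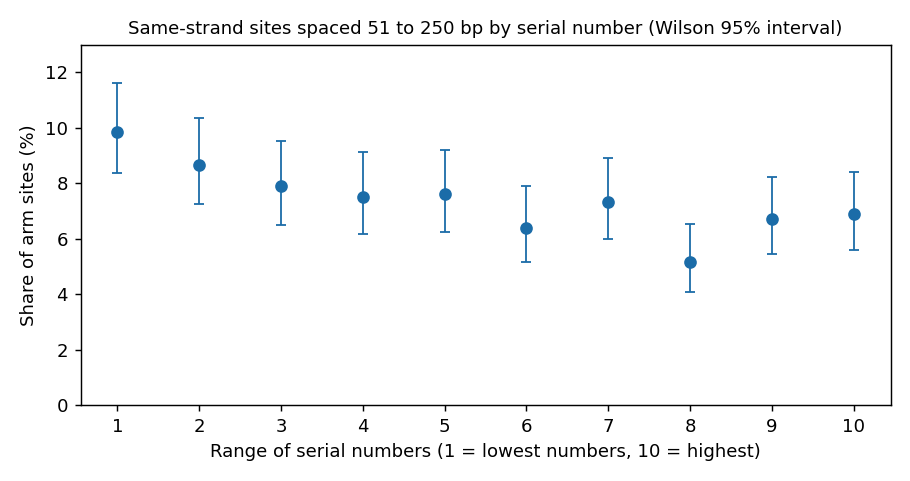
Share of arm sites that are same-strand sites spaced 51 to 250 bp (vertical axis, %) in 10 ranges of the serial numbers, from the lowest numbers (1) to the highest (10). Points are shares and bars are 95% Wilson intervals; range 1 is at 9.86% and range 8 at 5.16%.

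Beyond 500 bp, outside the window the rule used, the surroundings of spaced sites and of isolated sites were similar. The nearest site on either strand farther than 500 bp away was at a median of 4153 bp from a spaced site (quartiles 2064 and 8154), against 3891 bp (1855 and 7632) from an isolated site. Such a site lay within 1000 bp for 83 of 924 spaced sites (8.98%), against 931 of 9029 isolated sites (10.3%). Their 95% intervals overlap, and this difference was not tested.

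To compare the sites within a pair, 384 simple pairs were used, in which no other same-strand site lay within 250 bp of either site. They covered 768 sites, 201 pairs on the plus strand and 183 on the minus strand, at a median spacing of 87 bp. In a pair the upstream site is the one whose transcript starts first along the direction of transcription.

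The numbers within a pair were spread over much of the list. The lower number of a pair had a median of 3012 and the higher one a median of 8962, and the median difference within a pair was 4628 numbers, beside 4367 in pairs within 50 bp and 3612 in pairs 251 to 1000 bp apart. In 30 of the 384 pairs the numbers were less than 500 apart. Across these pairs, upstream and downstream numbers were negatively related (Spearman's rho of -0.23, Pearson's r of -0.23, n = 384), given as a description because the numbers come from 1 ranking of 1 list. By spacing, rho was -0.26 at 51 to 75 bp (n = 149), -0.36 at 76 to 100 bp (n = 76) and -0.27 at 101 to 150 bp (n = 73). At over 150 and up to 200 bp it was -0.06 (n = 49) and at 201 to 250 bp 0.12 (n = 37). The widest classes hold few pairs, and rho was not compared between classes by a test. In pairs with a same-strand neighbour within 50 bp rho was -0.16 (n = 345), and in pairs 251 to 1000 bp apart it was 0.09 (n = 288).

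Numbers up to 1000 are few in the list, so pairs that hold more than 1 of them are rare in any case. A number up to 1000 was present in 80 of the 384 pairs, and in 2 of these (2.50%, 0.688 to 8.66) both sites had one. In the 80 pairs the higher number had a median of 8335 (quartiles 5259 and 10906). Among pairs 251 to 1000 bp apart, 39 of 288 had a number up to 1000. In 2 of those 39 (5.13%, 1.42 to 16.9) both sites had one, and their higher number had a median of 5670 (quartiles 2107 and 9247). Pairs within 50 bp had a number up to 1000 in 73 of 345 cases, and their higher number had a median of 8692 (quartiles 4379 and 10681), close to the spaced pairs. The intervals of the shares overlap and the medians were not tested. The lower number was downstream in 53 and upstream in 20 of the 73 pairs within 50 bp. In the 80 spaced pairs it was downstream in 44 and upstream in 36, and in the 39 farther pairs in 19 and 20. These splits were not tested.

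The 5 simple pairs with the lowest number in either site were all on the plus strand. On the plus strand of 3R, the site at 7026138 had number 19 and its downstream partner at 7026236 had number 9150. On the plus strand of 2L, the upstream site at 21096702 had number 6514 and the site at 21096911 had number 35. A plus-strand pair on X had number 6042 at 10666510 and number 38 downstream at 10666582. The low number was the downstream one in 4 of these 5 pairs, while over all 80 pairs with a number up to 1000 it was downstream in 44 and upstream in 36. The remaining pairs were on 2L, with 10943 at 12718890 and 52 at 12719046, and on 3R, with 6773 at 17014536 and 58 at 17014590.

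Split at number 6600, 220 of the 384 pairs had 1 site on each side (57.3%, 52.3 to 62.1), 106 had both sites at or below it and 58 had both above. Pairs 251 to 1000 bp apart had 1 site on each side in 142 of 288 cases (49.3%, 43.6 to 55.1). The difference of 7.99 points did not pass the threshold after adjustment over 2 comparisons (Fisher's exact p = 0.0423, adjusted 0.0846). Pairs within 50 bp had 186 of 345 (53.9%, 48.6 to 59.1), which did not differ past the threshold from the spaced pairs (Fisher's exact p = 0.371, adjusted 0.371).

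**Figure D3:**
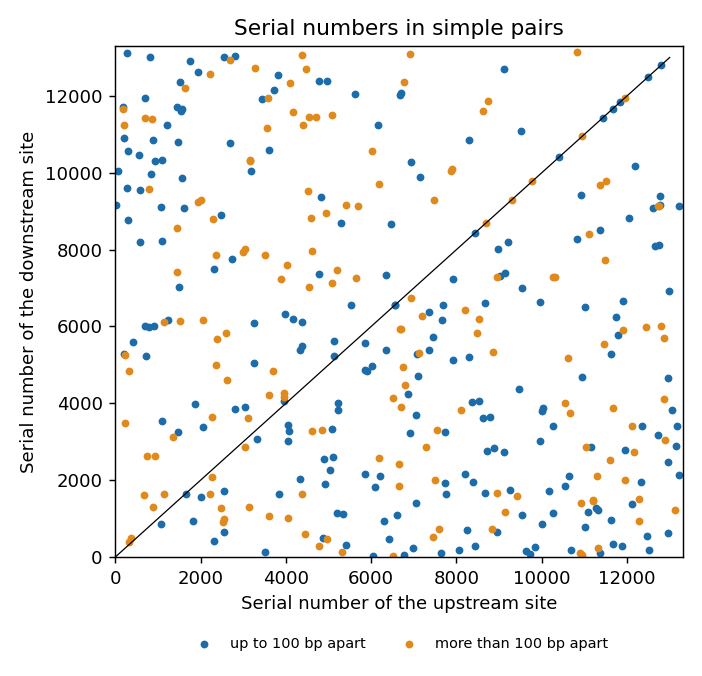
Serial number of the downstream site (vertical axis) against that of the upstream site (horizontal axis) in 384 simple pairs; each point is 1 pair, blue up to 100 bp apart and orange farther apart, and the line marks equal numbers. More points lie below the line (218, lower number downstream) than above it (166).

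The downstream site of a pair more often had the lower number. This was so in 218 pairs, against 166 pairs in which the upstream site had it, which is 56.8% (51.8 to 61.6, exact two-sided binomial test, p = 0.00916). The median number was 5385 for downstream sites and 6355 for upstream sites. The direction was the same on all 5 large arms, between 53.6% on 3R (52 of 97) and 58.2% on 2R (46 of 79), and no arm passed the test by itself, the smallest exact p being 0.177. On the minus strand 111 of 183 pairs had the lower number downstream (60.7%, exact p = 0.00483), and on the plus strand 107 of 201 (53.2%, exact p = 0.397). The difference between the strands did not pass the test (Fisher's exact p = 0.150). In 14 of the 384 pairs both sites lay in the same stretch of numbers, so their order was fixed by position. In these the lower number was upstream on the plus strand and downstream on the minus strand. Without these 14 pairs the downstream site had the lower number in 213 of 370 (57.6%, exact binomial p = 0.00418). The strands were not compared again without them.

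Of the 5 spacing classes, that of 76 to 100 bp passed the test. In it the downstream site had the lower number in 51 of 76 pairs (67.1%, 55.9 to 76.6, exact binomial p = 0.00384, adjusted over 5 spacing classes 0.0192). Their median number was 3407 downstream and 6692 upstream. At 51 to 75 bp it was 86 of 149 pairs (57.7%, 49.7 to 65.4, exact p = 0.0711, adjusted 0.178). The classes of 101 to 150 bp (37 of 73), over 150 and up to 200 bp (25 of 49) and 201 to 250 bp (19 of 37) were close to an equal split, each with an adjusted exact p of 1. Up to 100 bp there were 137 of 225 pairs (60.9%, 54.4 to 67.0), against 81 of 159 farther apart (50.9%, 43.2 to 58.6), and this difference did not pass the test (Fisher's exact p = 0.0600).

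Pairs on either side of the spacing limits place these values. Among the 345 pairs within 50 bp the downstream site had the lower number in 203 (58.8%, 53.6 to 63.9), which did not differ past the threshold from the spaced pairs (Fisher's exact p = 0.599, adjusted 0.599). Among the 288 pairs 251 to 1000 bp apart it had the lower number in 136 (47.2%, 41.5 to 53.0). The spaced pairs differed from those by 218 of 384 against 136 of 288 (Fisher's exact p = 0.0156, adjusted over 2 comparisons 0.0311). In all classes the list of numbers is the same, and no pair is counted in more than 1 class. The window without another same-strand site was wider for the pairs 251 to 1000 bp apart, so the selection was not alike.

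**Figure D4:**
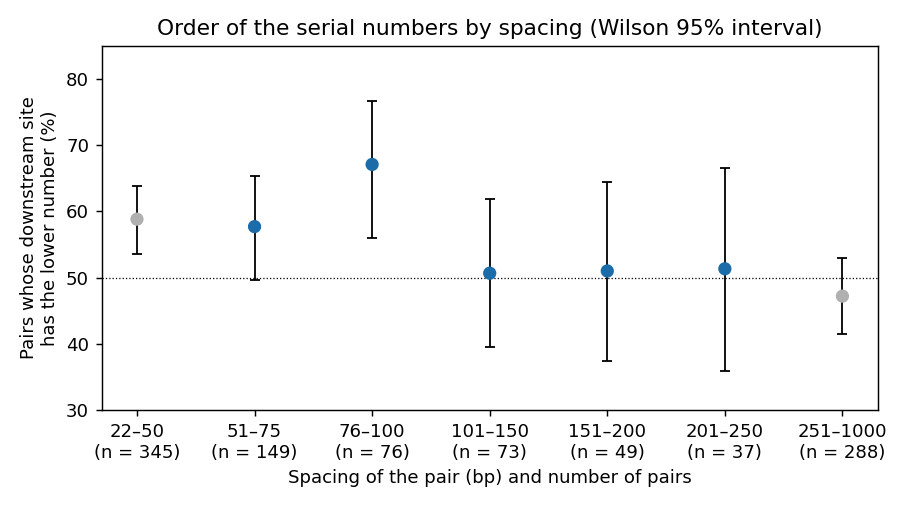
Share of pairs whose downstream site has the lower serial number (vertical axis, %) by spacing (horizontal axis, bp, with the number of pairs); blue points are spaced same-strand pairs, grey points are closer or farther pairs, bars are 95% Wilson intervals and the dotted line is an equal split. The highest point is 67.1% at 76 to 100 bp, and the intervals of the other 4 blue points include 50%.

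The BAC list gives a second screen in which the same positions could be looked up. It fell into 34 regions, taken as stretches with no gap above 60 kb between BAC sites, and these held 47 of the 924 spaced same-strand sites. At the same base and strand 32 of the 47 (68.1%, 53.8 to 79.6) were in the BAC list, against 293 of 465 isolated sites (63.0%, 58.5 to 67.3). The difference did not pass the test (Fisher's exact p = 0.529, adjusted 0.529). Of the sites with a same-strand neighbour within 50 bp, 24 of 41 were shared (58.5%, 43.4 to 72.2), also not past the threshold from the spaced sites (Fisher's exact p = 0.382, adjusted 0.529). The difference from isolated sites was 5.07 points at the same base, 0.30 points when matches within 5 bp counted and -1.21 points within 50 bp. It therefore has no settled direction. In the BAC regions the median serial number was 8274 for spaced sites and 6283 for isolated sites. The test was not adjusted for number. Sites of 1 group are also not independent. With 1 site per group (the lowest-numbered), 18 of 25 were shared (72.0%), 8.99 points above isolated sites (Fisher's exact p = 0.403, adjusted 0.403).

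**Figure D5:**
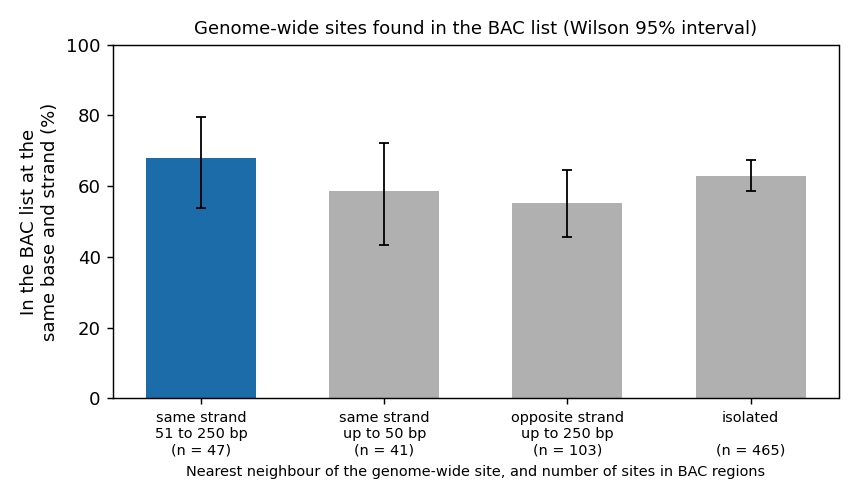
Share of genome-wide sites in BAC regions that are in the BAC list at the same base and strand (vertical axis, %), by nearest neighbour (horizontal axis, with the number of sites); bars are shares and error bars 95% Wilson intervals. Spaced same-strand sites are at 68.1% and isolated sites at 63.0%, with overlapping intervals.

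Sharing by number among the spaced sites rests on few sites. Of the 19 spaced sites with numbers up to 6600, 15 were shared (78.9%, 56.7 to 91.5), and of the 28 with higher numbers 17 were (60.7%, 42.4 to 76.4). These intervals overlap, and the difference was not tested. Among isolated sites, 78.7% of 249 with numbers up to 6600 were shared, and 44.9% (38.4 to 51.6) of 216 with higher numbers. Spaced and isolated sites were not tested against each other within either range of numbers.

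Of the simple pairs, 19 lay in the BAC regions. Both sites were found within 5 bp in the BAC list in 9 pairs, 1 of the sites in 9 pairs and neither in 1 pair. All 9 pairs found whole were found at the same bases, so their spacing was the same in both lists. The pair not found lay on the minus strand of X, at 5687188 and 5687240. Where 1 site was found, it was the lower-numbered one in 6 of 9 pairs (exact binomial p = 0.508) and the downstream one in 6 of 9.

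The 5 pairs in BAC regions with the lowest numbers show how single sites fared. On the plus strand of 3R the site at 11491908, number 1145, was BAC site 47, while the site 76 bp upstream at 11491832, number 10254, had no BAC site within 50 bp. On the plus strand of 3L the sites at 5624028 and 5624083, numbers 4926 and 1908, were BAC sites 688 and 106. On 3R the downstream site at 2912325, number 2722, had BAC site 93 at 2 bp, and the upstream site at 2912238, number 9110, had none within 50 bp. In these first 3 pairs the downstream site had the lower number, and it was found in the BAC list each time. On the minus strand of 2R the sites at 3610157 and 3610085, numbers 2733 and 7756, were BAC sites 56 and 566. On the minus strand of 2L the upstream site at 19398491, number 2807, was BAC site 148, and the downstream site at 19398409, number 3852, had none within 50 bp.

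The order of the numbers within a pair could be compared between the lists. In 7 of the 9 pairs found whole the site with the lower genome-wide number also had the lower BAC number, and in 2 it had the higher one (exact two-sided binomial p = 0.180). The smallest p that this binomial test can give with 9 pairs is 0.00391, at 9 of 9. One of the pairs with turned order was on the minus strand of 3L, where 7858595 had genome-wide number 4606 and BAC number 692, and 7858490 had 7953 and 312. The other was on the plus strand of 3R, where 19149302 had 12448 and 314, and 19149527 had 5995 and 378.

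Applied to the BAC list itself, the same rule kept 55 of its 753 sites (7.30%, 5.65 to 9.39). This is close to the 7.41% among the arm sites of the genome-wide list. These formed 23 simple pairs with a median spacing of 108 bp. Both sites of 13 pairs were in the genome-wide list within 5 bp, 1 site of 5 pairs and neither site of 5 pairs. The downstream site had the lower BAC number in 15 of 23 pairs (65.2%, 44.9 to 81.2), which did not pass the test (exact binomial p = 0.210). Its interval includes 50% as well as the value of the genome-wide pairs. Part of these pairs are the same as in the genome-wide list, so this is not a separate set of sites.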

How the data were processed

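Per the labels' protocols, genomic or BAC fragments were cloned into STAP-seq vectors with or without an enhancer. The submitters' processing notes name the build dm3 and the tools CASAVA 1.9.1 and Bowtie 0.12.9, with no role for either. The deposited lists hold positions, serial numbers and strands only, and no other unit. How sites were called, merged or numbered, and whether replicates were pooled, is not stated in the labels or the files.

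Distances between sites were calculated in Python 3.11.15 (scipy 1.17.1, pandas 2.3.3, numpy 2.4.6) and drawn with matplotlib 3.10.9. The code was tested on simulated data with planted pairs. Shares have Wilson 95% intervals. The threshold was 0.05. Named sites are the groups with most sites, the 5 simple pairs with the lowest number, and the 5 such pairs in BAC regions; other named groups and sites were chosen after their values were seen. The set and its comparisons were chosen with earlier results of these data known. The comparisons of number classes, of pairs split at 6600 and of pairs beyond 250 bp were added after the values were seen. Replicate fits and sequence motifs were planned and could not be run. The other 10 samples were not analysed here.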

Additional observations from a re-analysis of the deposited data

How the results depend on the processing

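Of 24 alternatives over 5 results, 15 kept the direction and the side of the threshold, after adjustment where 2 comparisons were made (for the share of sites, stayed in its interval). Only 14 of the 24 were planned. The splits by strand and by stretches of numbers and the pairs of the BAC list were among those not planned. For BAC sharing and for pairs split at the median number, keeping the side means remaining not past the threshold. The share of spaced sites, 7.41%, was 6.67% with spacings up to 200 bp, lower by construction, and 6.48% without the highest-numbered 25% of sites. That shorter list was classed anew, so a site whose only near neighbour had been removed no longer counted. How much of the fall this makes was not tested. The share of pairs with the lower number downstream, 56.8%, was 51.2% at spacings over 150 bp, 53.2% on the plus strand and 65.2% in the BAC list, none past the threshold, with 86, 201 and 23 pairs. The difference from isolated sites in BAC sharing, 5.07 points, was -1.21 points when matches within 50 bp counted, and passed the threshold in none of its alternatives. The difference in low numbers, 7.30 points, was 4.68 points with 1 site per group. In the list without its highest-numbered 25% of sites, split at its own median, it was 2.01 points. Neither passed the threshold. For pairs with 1 site on each side of the median number, the 7.99 points, not past the threshold, became 9.22 points and passed it when no opposite-strand site lay within 500 bp (Fisher's exact p = 0.0208, adjusted 0.0417). For these changes the cause was not tested beyond the construction named. No paired analysis was possible because neither list has per-sample values, and leaving out replicates could not be run for the same reason. Depth is unknown.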
